A study of Homo sapiens with 6 samples.

Results

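Autophagy delivers cytoplasmic cargo to the lysosome through a fixed order of steps. A kinase complex and a lipid kinase complex start a membrane sheet, lipid transfer proteins let it grow, and 2 ubiquitin-like conjugation systems attach ATG8 proteins to it. Cargo receptors then bind the ATG8 proteins, and SNARE and tethering proteins fuse the closed autophagosome with a lysosome. In leukaemia cells the pathway is known for clearing damaged mitochondria and protein aggregates and for supplying nutrients under stress. LAMP5 belongs to the lysosome-associated membrane protein family, which is named for the compartment where autophagy ends.

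The 46 genes described here were taken by symbol from a list that covers those steps: 5 genes of initiation, 8 of the PI3K complex, 5 of lipid transfer, 11 of conjugation, 5 of the ATG8 family, 5 cargo receptors and 7 of fusion. All 46 were present among the 39771 identifiers of the deposited table. They were measured by RNA sequencing in MOLM-13, a human acute myeloid leukaemia line that carries the MLL-AF9 translocation. All cells had received a lentiviral hairpin and puromycin, the drug that kills cells without the vector. In 4 libraries the hairpin was against LAMP5 (shLAMP5), and in 2 it was a non-targeting one (shNT). All libraries are from 1 cell line, and which LAMP5 hairpin and which harvest time belongs to each library was not given in the sources used here. The comparison asks how the RNA of each autophagy step differed when LAMP5 was knocked down.

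LAMP5 (ENSG00000125869) itself measured 80.6, 65.6, 68.8 and 86.7 TPM (a transcript level scaled for transcript length and library total) in shLAMP5 1 to 4, against 170 and 282 TPM in shNT 1 and 2. Every shLAMP5 library was below both shNT libraries, and the shLAMP5 mean was 33.3% of the shNT mean. The log2 fold change was -1.54 (SE 0.25), with a limma p of 0.000275, an adjusted p of 0.252 and an exact two-sided permutation p of 0.0667, the smallest that 2 against 4 libraries allow. The library sums were 897026 to 912565 TPM, and read depth is unknown because TPM keeps none. All 14 AML and myeloid markers reached 1 TPM in every library. Of the markers of other cell types, CD3D of the 5 T cell markers and KRT8 and KRT18 of the 6 measured epithelial, fibroblast and packaging cell markers reached 1 TPM in every library. COL1A1 of the same list measured 0.981 to 5.91 TPM in shLAMP5 and 2.75 and 0.696 TPM in shNT libraries. All 6 erythroid and megakaryocytic markers and 4 of the 5 B cell markers were below 1 TPM in every library. The summed level of the epithelial, fibroblast and packaging list was 26.7 to 37.4 TPM in shLAMP5 and 29.01 to 31.6 TPM in shNT libraries. That of the T cell list was 1.94 to 8.85 TPM in shLAMP5 and 2.28 to 4.00 TPM in shNT libraries, and that of the myeloid list 2017 to 10500 TPM in shLAMP5 and 2641 to 6732 TPM in shNT libraries. Most of the myeloid sum was the single gene LYZ, at 1397 to 9730 TPM in shLAMP5 and 1984 and 6062 TPM in shNT libraries. The part of these markers in the results was not tested. In bulk RNA, fewer cells of a type and less RNA per cell cannot be told apart.

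No autophagy gene passed the test. The highest log2 fold changes were those of GABARAPL1, WIPI1, MAP1LC3A and SQSTM1. The test was limma on log2(TPM + 1) over the 13072 genes that reached 1 TPM in 2 or more libraries, at an adjusted p of 0.05. Of the 46 genes 45 entered it and 0 were called, as were 0 of all genes tested (0%). The smallest adjusted p of the 45 was 0.505, and the smallest of all genes was 0.252. An unadjusted p under 0.05 was reached by 2 of the 45, GABARAPL1 and MAP1LC3A, both higher in shLAMP5, against 1172 of all genes (8.97%). Without shLAMP5 2 these counts were 10 and 2248 (17.6%), without shNT 1 they were 2 and 499 (3.87%), and without shNT 2 they were 0 and 408 (3.15%). MAP1LC3A was below 1 TPM in both shNT libraries and passed the filter only through shLAMP5, so its place in this count is no support for a difference. The log2 fold change, always shLAMP5 over shNT, was positive for 31 of the 45 (68.89%), against 49.26% of all genes. Its median was 0.14 over the 45 and -0.0060 over all genes tested, and it spanned -0.30 for BECN1 to 1.16 for GABARAPL1. The medians over the 45 and over all genes were 0.26 and 0.045 without shLAMP5 2, 0.095 and -0.040 without shNT 1, and 0.24 and 0.0060 without shNT 2. In 4 genes these signs were turned by scaling: PIK3R4, ATG12, CALCOCO2 and VAMP8 were negative as deposited and positive after median scaling. After that scaling 35 of 45 were positive, against 52.9% of all genes.

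**Figure D1:**
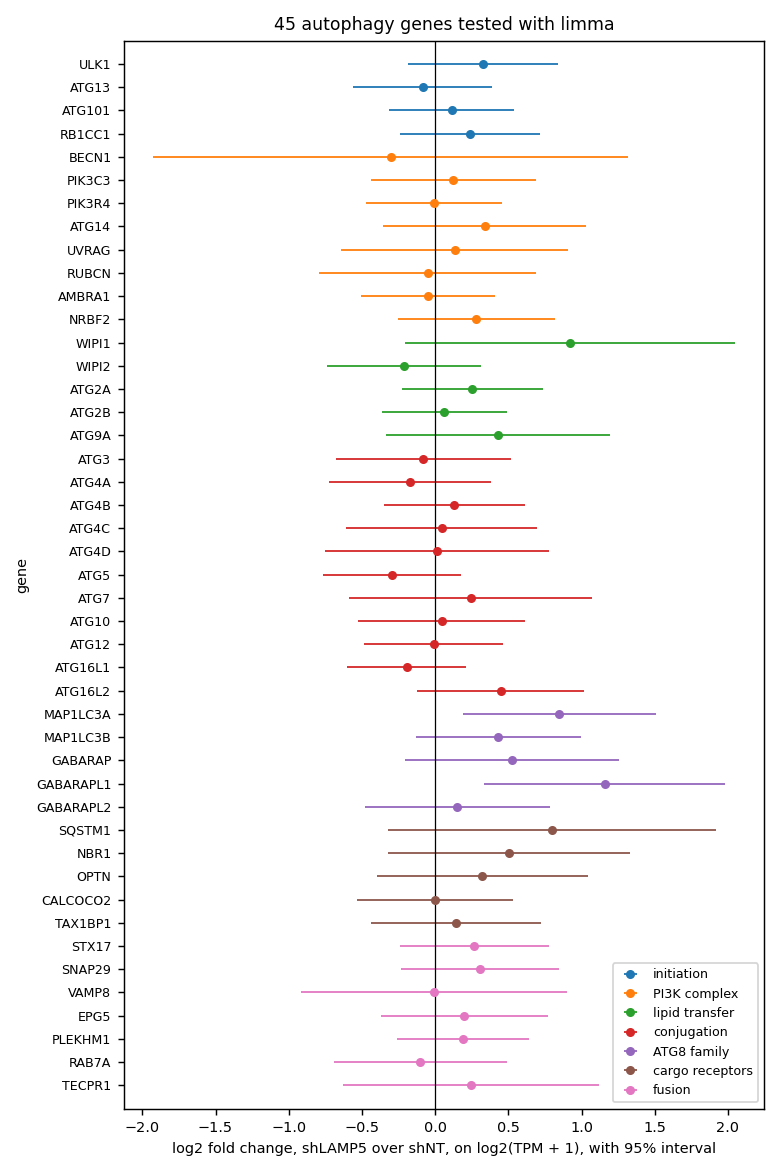
Log2 fold changes of the 45 autophagy genes tested, shLAMP5 over shNT on the log2(TPM + 1) scale (horizontal axis), with points for the limma estimate and bars for its 95% interval, coloured by step. The intervals of GABARAPL1 (0.33 to 1.98) and MAP1LC3A (0.19 to 1.51) are the only ones that lie above 0, although MAP1LC3A passed the filter only through shLAMP5, and that of BECN1 is the widest, from -1.93 to 1.32.

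Groups that did not overlap were few. In 5 of the 45 genes, ULK1, MAP1LC3A, MAP1LC3B, GABARAPL1 and STX17, no shLAMP5 library was as low as either shNT library, against 8.25% of all genes, so that these groups were apart. MAP1LC3A passed the filter only through shLAMP5, so its place in this and the following counts of higher genes is no support for a difference. In 2 of the 45, ATG5 and ATG16L1, no shLAMP5 library was as high as either shNT library, against 13.5% of all genes. Together these 7 were 15.56% of the 45, below the 21.8% of all genes, so the count does not exceed the background of the table. Under median scaling 8 were above, without MAP1LC3B and with EPG5, NRBF2, RB1CC1 and SNAP29, and 1 was below, ATG5, where 12% of all genes were above and 13.7% below. Single libraries moved the count of 5. It was 17 (37.8%, against 22.5% of all genes) without shLAMP5 2, 8 (17.8%, against 9.82%) without shLAMP5 4, and 10 (22.2%) without shNT 1 or without shNT 2, against 18.4% and 15.9% of all genes, so that the share over all genes moved as well. The count of 2 became 4 (8.89%, against 15.9% of all genes) without shLAMP5 3. For 24 of the 45 genes (53.33%) the 2 shNT libraries differed by more than the group means did, against 49.66% of all genes.

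**Figure D2:**
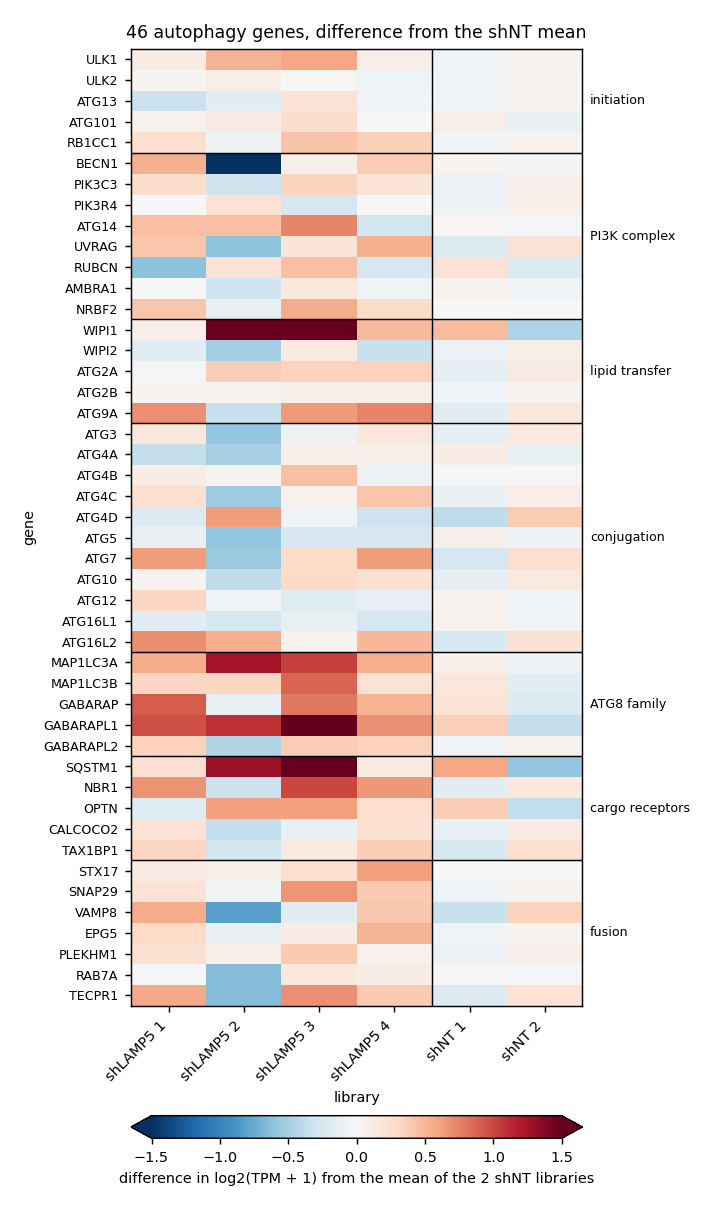
Difference in log2(TPM + 1) of each of the 46 genes (rows, grouped by step) from the mean of the 2 shNT libraries, in the 4 shLAMP5 and then the 2 shNT libraries (columns), with red for higher and blue for lower and colours ending at 1.5 in either direction. The ATG8 rows are red in most shLAMP5 libraries, and the shLAMP5 2 column is blue for many genes, deepest for BECN1.

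At initiation, ULK1 was the gene with the highest fold change, and no gene of the step passed the test. ULK1 (ENSG00000177169), the kinase that starts autophagy, measured 6.82, 9.31, 9.86 and 6.76 TPM in shLAMP5 1 to 4, against 5.96 and 6.53 TPM in shNT 1 and 2. The groups did not overlap, although shLAMP5 1 and 4 were close to shNT 2, and under quantile normalization they did overlap. Its log2 fold change was 0.33 (SE 0.22, limma adjusted p 0.684). ATG13, the adaptor that carries ULK1 to its scaffold, measured 46.6, 52.1, 67.6 and 56.8 TPM in shLAMP5 libraries, against 57.0 and 60.5 TPM in shNT libraries. With shLAMP5 libraries on both sides of shNT, its log2 fold change was -0.085 (SE 0.21). ATG101, which stabilises ATG13, had a log2 fold change of 0.11 and RB1CC1, the large scaffold also called FIP200, one of 0.24, with intervals that span 0. ULK2, the paralogue of ULK1, stayed between 0.094 and 0.224 TPM in shLAMP5 and between 0.110 and 0.180 TPM in shNT libraries and was too low to test.

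The PI3K complex, which marks the growing membrane with phosphatidylinositol 3-phosphate, had genes of both signs. Of its 8 genes 4 had positive and 4 negative log2 fold changes, with a median of 0.059 that was 0.28 without shLAMP5 2, and in no gene were the groups apart. BECN1, the scaffold of the complex, measured 27.1, 3.22, 19.5 and 24.0 TPM in shLAMP5 1 to 4, against 19.0 and 17.8 TPM in shNT 1 and 2. The value of shLAMP5 2 was 18.1% of the lowest other library, while the other 3 shLAMP5 libraries exceeded both of shNT. The log2 fold change of -0.30 (SE 0.70, limma adjusted p 0.924) became 0.33 without shLAMP5 2, so that 1 library set its sign. A drop of this depth, below 25% of the lowest other library, occurred in shLAMP5 2 for 104 of the 13072 genes (0.796%) and in each other library for 17 to 40, and BECN1 was the single autophagy gene among them. This count was chosen after the values were seen. What set the BECN1 value apart in that library was not tested.

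ATG14, the subunit that directs the complex to autophagy, had the highest fold change of the 8. It measured 3.66, 3.66, 4.66 and 1.81 TPM in shLAMP5 1 to 4, against 2.47 and 2.36 TPM in shNT libraries, and shLAMP5 4 was the lowest of all 6. Its fold change in log2 was 0.34 (SE 0.30, limma adjusted p 0.771), and it was 0.54 without shLAMP5 4 and 0.21 without shLAMP5 3. UVRAG, which takes the place of ATG14 in the endosomal form of the complex, ranged from 10.2 to 23.6 TPM in shLAMP5, which enclosed the 13.6 and 18.8 TPM of shNT. RUBCN, an inhibitor of that second form, ranged from 4.32 to 10.1 TPM in shLAMP5, against 8.45 and 5.96 TPM in shNT. The lipid kinase PIK3C3 (0.12), its regulatory subunit PIK3R4 (-0.0060), the ULK1 substrate AMBRA1 (-0.049) and NRBF2 (0.28), which binds the ATG14 form, had log2 fold changes whose intervals span 0.

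Among lipid transfer genes, WIPI1 and ATG9A had the highest fold changes and WIPI2 the lowest. WIPI1, which binds phosphatidylinositol 3-phosphate on the growing membrane, measured 1.75, 6.87, 6.45 and 2.65 TPM in shLAMP5 1 to 4, against 2.58 and 0.888 TPM in shNT 1 and 2. The shLAMP5 libraries formed a high pair (2 and 3) and a low pair (1 and 4), and the low pair overlapped shNT. Its log2 fold change was 0.92 (SE 0.49, limma adjusted p 0.606), 0.46 without shNT 2 and 1.38 without shNT 1. WIPI2, the relative that recruits ATG16L1, had the reverse sign, with 46.3, 36.2, 57.2 and 40.7 TPM in shLAMP5 against 48.7 and 54.9 TPM in shNT libraries. There 3 of the 4 shLAMP5 libraries were below both shNT libraries, and the log2 fold change was -0.21 (SE 0.23), or -0.12 without shLAMP5 2 and -0.33 without shLAMP5 3. At their levels, WIPI2 was the more abundant of the pair in every library.

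ATG9A, the membrane protein that scrambles lipids between leaflets, measured 33.1, 15.8, 32.0 and 34.3 TPM in shLAMP5 1 to 4, against 17.8 and 22.9 TPM in shNT libraries. In shLAMP5, 3 libraries were above both shNT libraries and shLAMP5 2 was below both. The log2 fold change was 0.43 (SE 0.33, limma adjusted p 0.720), 0.69 without shLAMP5 2 and 0.26 without shNT 1. Of the distinct 31-base stretches of the ATG9A transcripts in GENCODE release 29, 35.5% also occur in other annotated genes, of which AC068946.2 shares the most, so its level is uncertain. The lipid bridge proteins ATG2A and ATG2B had log2 fold changes of 0.25 (SE 0.21) and 0.063 (SE 0.18).

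Conjugation genes had a median log2 fold change of 0.012, with 6 of 11 positive. In 2 genes, both subunits of the ligase that attaches ATG8 proteins to lipid, all 4 shLAMP5 libraries were below both shNT libraries. ATG5 (ENSG00000057663), which is joined to ATG12, measured 23.4, 16.6, 21.4 and 21.4 TPM in shLAMP5 1 to 4, against 26.8 and 24.1 TPM in shNT libraries. ATG16L1 (ENSG00000085978), which places the ligase on the membrane, measured 13.3, 12.3, 13.7 and 12.4 TPM in shLAMP5, against 15.5 and 14.4 TPM in shNT libraries. Neither gene's groups overlapped, but the gap between the nearest libraries was under 1 TPM in both, and neither passed the test. The log2 fold changes were -0.29 (SE 0.20, limma adjusted p 0.690) for ATG5 and -0.20 (SE 0.18, adjusted p 0.775) for ATG16L1. After median scaling the ATG16L1 groups overlapped, and those of ATG5 did not. ATG12, the third subunit, had 25.98 to 36.7 TPM in shLAMP5, which enclosed the 30.6 and 28.5 TPM of shNT.

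ATG16L2, the paralogue of ATG16L1, had the highest fold change of the step. It measured 52.6, 47.4, 33.3 and 45.6 TPM in shLAMP5 1 to 4, against 27.1 and 37.9 TPM in shNT 1 and 2. Only shLAMP5 3 lay between the shNT libraries, and the other 3 were above both. On the log2 scale its fold change was 0.45 (SE 0.25, limma adjusted p 0.614), with a range of 0.21 to 0.68 when single libraries were left out. ATG16L2 was more abundant than ATG16L1 in every library, at a mean of 40.7 TPM against 13.6 TPM over the 6. ATG7, the activating enzyme of both conjugation systems, measured 65.5, 28.3, 51.0 and 65.6 TPM in shLAMP5, against 35.2 and 50.2 TPM in shNT libraries. The lowest and the highest value both belonged to shLAMP5. Its log2 fold change of 0.24 (SE 0.36) was -0.0058 without shNT 1 and 0.51 without shLAMP5 2.

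The 2 conjugating enzymes, ATG3 for ATG8 proteins and ATG10 for ATG12, had log2 fold changes of -0.080 (SE 0.26) and 0.044 (SE 0.25). ATG3 was the most abundant conjugation gene, with a mean of 81.3 TPM over the 6 libraries. The 4 ATG4 proteases, which trim ATG8 proteins before conjugation and release them from the membrane afterwards, had log2 fold changes of -0.17 for ATG4A to 0.13 for ATG4B, with 0.047 for ATG4C and 0.012 for ATG4D. ATG4B, averaging 50.9 TPM over the 6 libraries, was far more abundant than the other 3, which averaged 4.56 to 7.92 TPM. None of the 4 had groups that were apart.

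All 5 ATG8 genes had positive log2 fold changes, with a median of 0.53, against 0.14 over the 45 genes. MAP1LC3A among them passed the filter only through shLAMP5. With a minimum of 5 TPM, which leaves MAP1LC3A out, the median of the other 4 was 0.48, against 0.14 over the 40 autophagy genes then tested. At that minimum GABARAP, with 4.30 and 2.98 TPM in shNT libraries, passed only through shLAMP5, as did WIPI1 and STX17 among the 40. This median is therefore not free of the filter and is no support for a difference. The ATG8 median was 0.32 without shNT 2 and 0.73 without shNT 1. The single genes ranged widely, and GABARAPL2 stood near the median of the 45. The exception to this shared sign was GABARAPL2 at -0.057 when the replicate number was used as a block. ATG8 proteins are the small ubiquitin-like coat of the autophagosome and split into the LC3 and the GABARAP branches. GABARAPL1 (ENSG00000139112), of the GABARAP branch, measured 31.2, 34.3, 59.4 and 25.5 TPM in shLAMP5 1 to 4, against 20.2 and 11.8 TPM in shNT 1 and 2. The means were 37.6 ± 15.01 TPM (SD, n = 4) in shLAMP5 and 15.97 ± 5.91 TPM (SD, n = 2) in shNT libraries, and shLAMP5 3 stood well above the rest. The groups did not overlap. The log2 fold change of this gene was the highest of the 45 genes, at 1.16 (SE 0.36, unadjusted limma p 0.0119, adjusted p 0.505). Left-out libraries gave 0.80 without shNT 2 to 1.52 without shNT 1.

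The other members of that branch were less far apart. GABARAPL2, the most abundant ATG8 gene, measured 75.4, 43.1, 77.5 and 75.4 TPM in shLAMP5 1 to 4, against 57.1 and 61.8 TPM in shNT libraries, with a log2 fold change of 0.15 (SE 0.27, limma adjusted p 0.9003). The libraries shLAMP5 1, 3 and 4 lay close together above both shNT libraries, and shLAMP5 2 was below both. Without it the GABARAPL2 log2 fold change was 0.35. GABARAP measured 7.61, 3.22, 6.93 and 5.61 TPM in shLAMP5, against 4.30 and 2.98 TPM in shNT libraries. Here shLAMP5 2 again was the lowest of its group, between the shNT libraries, and the log2 fold change was 0.53 (SE 0.32, adjusted p 0.654), or 0.32 without shNT 2. Of the 31-base stretches of GABARAP, 29.7% occur in other annotated genes, AC120057.2 sharing the most, which makes its level uncertain. For GABARAPL1 the share was 1.64%, most with GABARAPL3, itself at or under 0.0294 TPM in every library.

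In the LC3 branch, MAP1LC3A (ENSG00000101460) measured 1.38, 2.85, 2.28 and 1.36 TPM in shLAMP5 1 to 4, against 0.701 and 0.529 TPM in shNT libraries. The lowest shLAMP5 library stood well above the higher shNT library, and shLAMP5 2 and 3 were the highest pair. Both shNT values were below the filter of 1 TPM, so MAP1LC3A was tested only because it was high in shLAMP5. Its log2 fold change was 0.85 (SE 0.29), given as a description, and at this level the added 1 understates a change. With 0.1 added instead it was 1.48. MAP1LC3B (ENSG00000140941), the LC3 most used as an autophagosome marker, measured 20.6, 20.8, 30.7 and 19.2 TPM in shLAMP5, against 18.6 and 14.4 TPM in shNT libraries. Its groups were apart by under 1 TPM as deposited and overlapped after median scaling, and the log2 fold change was 0.43 (SE 0.24, limma adjusted p 0.629), or 0.26 without shNT 2. Of its stretches 6.12% occur in other annotated genes, most in MAP1LC3B2, which was at or under 0.192 TPM. MAP1LC3C, not among the 46, was at or under 0.0910 TPM in every library.

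**Figure D3:**
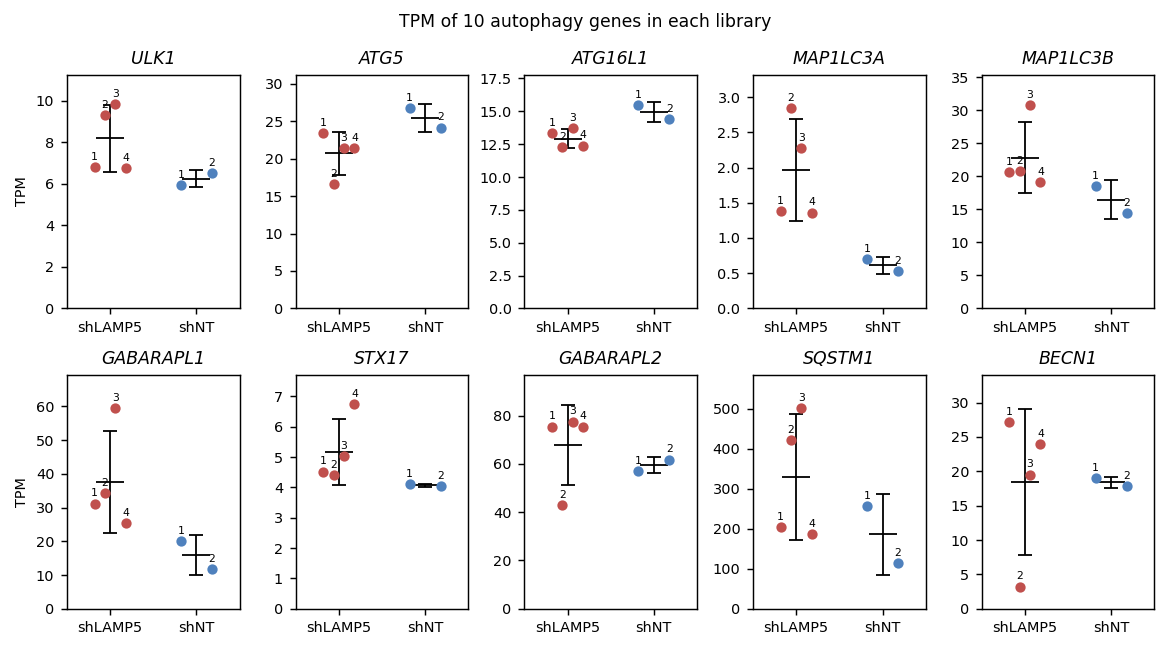
TPM of 10 autophagy genes in each library (vertical axes start at 0), with numbered points for the 4 shLAMP5 (left, red) and 2 shNT (right, blue) libraries, and lines for the group mean with bars of 1 SD. ULK1, MAP1LC3A, MAP1LC3B, GABARAPL1 and STX17 have all 4 shLAMP5 points above both shNT points, ATG5 and ATG16L1 have them below, and BECN1 has 1 shLAMP5 point at 3.22 TPM.

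Because TPM is per length, the 5 ATG8 levels can be added. Their sum was 136, 104, 177 and 127 TPM in shLAMP5 1 to 4, against 101 and 91.5 TPM in shNT 1 and 2. All shLAMP5 sums were above both shNT sums, with means of 136 ± 30.4 TPM (SD, n = 4) in shLAMP5 and 96.1 ± 6.57 TPM (SD, n = 2) in shNT libraries. GABARAPL1 made up 22.9%, 32.9%, 33.6% and 20.1% of that sum in shLAMP5 libraries, against 20.0% and 12.9% in shNT libraries. GABARAPL2 held the largest share in all 6, at 49.98% ± 8.76 (SD, n = 4) in shLAMP5 and 62.1% ± 7.72 (SD, n = 2) in shNT libraries. The ratio of GABARAPL1 to GABARAPL2 was 0.414, 0.796, 0.767 and 0.338 in shLAMP5, against 0.353 and 0.191 in shNT libraries, so shLAMP5 2 and 3 stood apart from the other 4 libraries. No test was run on these sums and shares.

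**Figure D4:**
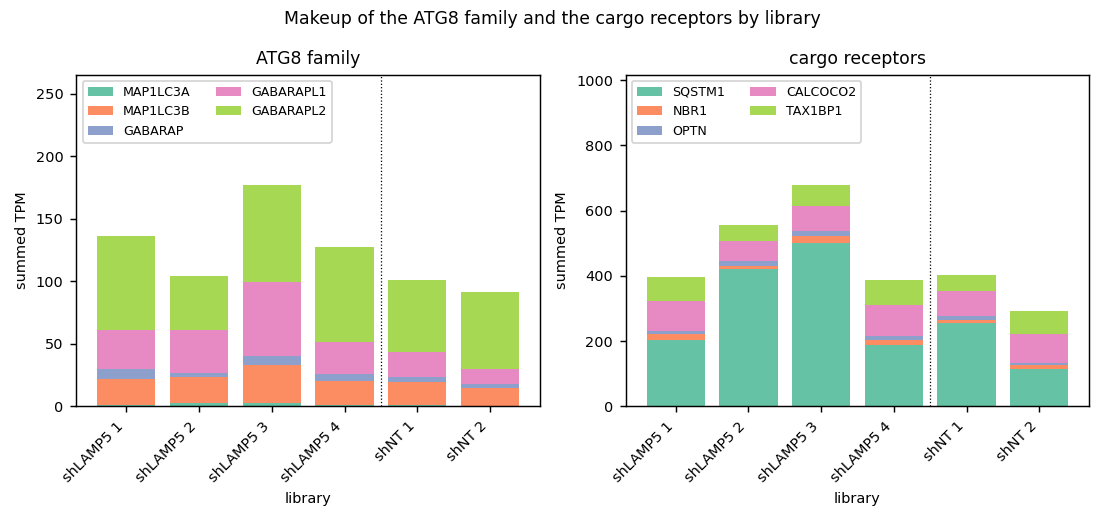
Stacked TPM of the 5 ATG8 genes (left panel) and the 5 cargo receptors (right panel) in the 4 shLAMP5 and then the 2 shNT libraries, each gene in its own colour and bars starting at 0. The ATG8 sum is 104 to 177 TPM in shLAMP5 and 91.5 to 101 TPM in shNT libraries, and the SQSTM1 block is largest in shLAMP5 2 and 3.

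The regulatory sequence of GABARAPL1 and MAP1LC3B is shown because the groups of both were apart and both have a RefSeq start window with a stress-response motif. GABARAPL1 (chr12:10212627-10212876, plus strand, GRCh38.p14) holds the 8-letter CREB site, in capitals, close to its start, and MAP1LC3B (chr16:87392086-87392335, plus strand) holds a match to the antioxidant response element TGACNNNGC, also in capitals. Each is the 250 bases upstream of the gene start, from RefSeq.
GABARAPL1: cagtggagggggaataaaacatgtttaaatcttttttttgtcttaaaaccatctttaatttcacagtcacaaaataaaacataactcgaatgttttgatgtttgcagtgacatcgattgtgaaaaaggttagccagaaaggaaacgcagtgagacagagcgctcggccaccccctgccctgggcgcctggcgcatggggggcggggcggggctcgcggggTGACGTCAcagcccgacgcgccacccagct
MAP1LC3B: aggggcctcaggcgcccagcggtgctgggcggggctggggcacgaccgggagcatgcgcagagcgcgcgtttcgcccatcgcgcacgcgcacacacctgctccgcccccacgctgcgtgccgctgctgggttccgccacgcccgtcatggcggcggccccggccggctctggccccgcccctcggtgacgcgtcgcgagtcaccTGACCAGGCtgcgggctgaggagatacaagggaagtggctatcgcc
The CREB site TGACGTCA, its own reverse complement, occurred in 2 of 49 windows of the 40 autophagy genes matched (4.08%), GABARAPL1 and NRBF2, against 1.85% of 35116 windows of all genes. The antioxidant element, searched on both strands, occurred in 4 windows (8.16%), of ATG101, CALCOCO2, MAP1LC3B and TECPR1, against 13.3% of all windows. Windows ran from 250 bases before to 50 after the start, and the motifs were picked with the values known. A match describes these letters and is not evidence of binding.

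Among cargo receptors, SQSTM1 had the highest level in every library. SQSTM1, also called p62, binds ubiquitinated cargo and is itself consumed by autophagy. It measured 204, 423, 501 and 187 TPM in shLAMP5 1 to 4, against 257 and 115 TPM in shNT 1 and 2. The libraries shLAMP5 2 and 3 were above both shNT libraries, and shLAMP5 1 and 4 lay between them. The fold change was 0.80 on the log2 scale (SE 0.48, limma adjusted p 0.655), and it was 0.22 without shNT 2 and 1.38 without shNT 1. In share, SQSTM1 was 51.4%, 76.0%, 73.9% and 48.3% of the summed receptor TPM in shLAMP5, against 63.9% and 39.4% in shNT libraries, which overlapped.

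OPTN, a receptor for mitochondria and bacteria, measured 7.70, 14.2, 14.2 and 10.8 TPM in shLAMP5 1 to 4, against 11.9 and 6.66 TPM in shNT libraries. As for SQSTM1, shLAMP5 2 and 3 and shNT 1 were its 3 highest libraries, and the log2 fold change of 0.32 (SE 0.31) was -0.053 without shNT 2. NBR1, which acts with SQSTM1, had a fold change of 0.50 on the log2 scale (SE 0.36, limma adjusted p 0.695), or 0.78 without shLAMP5 2. Its TPM was 8.22 in shLAMP5 2 and 17.2 to 22.2 in the other shLAMP5 libraries, against 9.34 and 11.9 in shNT libraries. CALCOCO2, also called NDP52, measured 94.7, 62.9, 75.7 and 95.6 TPM in shLAMP5, against 74.4 and 88.6 TPM in shNT libraries, with a log2 fold change of -0.0027 (SE 0.23). For TAX1BP1, its relative, the log2 fold change was 0.14 (SE 0.25). None of the 5 receptors had groups that were apart.

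Fusion genes had a median log2 fold change of 0.20, with 5 of 7 positive, and the median was 0.31 without shLAMP5 2 and 0.12 without shNT 1. STX17 (ENSG00000136874), the autophagosomal SNARE, measured 4.52, 4.40, 5.02 and 6.75 TPM in shLAMP5 1 to 4, against 4.10 and 4.04 TPM in shNT libraries. All 4 shLAMP5 libraries were above both shNT libraries, 3 of them by no more than 1 TPM. The log2 fold change was 0.27 (SE 0.22, limma adjusted p 0.745), or 0.15 without shLAMP5 4. SNAP29, which binds STX17, measured 21.6, 17.8, 29.8 and 24.6 TPM in shLAMP5, against 17.9 and 19.1 TPM in shNT libraries, and shLAMP5 2 alone was below both shNT libraries. Its log2 fold change was 0.30 (SE 0.23, adjusted p 0.720), or 0.19 without shLAMP5 3. VAMP8, the lysosomal SNARE partner and the most abundant of the 46 genes, measured 610, 235, 369 and 552 TPM in shLAMP5, against 331 and 523 TPM in shNT libraries. The shLAMP5 values enclosed those of shNT, and the log2 fold change was -0.0073 (SE 0.39).

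RAB7A, the GTPase of late endosomes and lysosomes, measured 173, 112, 197 and 191 TPM in shLAMP5 1 to 4, against 179 and 173 TPM in shNT libraries. Except for shLAMP5 2, all libraries lay between 173 and 197 TPM. The estimated log2 fold change was -0.10 (SE 0.26) and became 0.081 without shLAMP5 2. The tether EPG5 (0.20), the adaptor PLEKHM1 (0.19), which joins RAB7 to the tethering complex, and TECPR1 (0.25), which binds the ATG12 and ATG5 conjugate, had log2 fold changes with intervals that span 0. Of the 31-base stretches of PLEKHM1, 27.2% occur in other annotated genes, most in the pseudogene PLEKHM1P1, which was at or under 0.881 TPM.

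E-boxes, the letters CACGTG that TFEB and MYC bind, are a known feature of lysosomal and autophagy gene promoters. The E-box, its own reverse complement, occurred in 4 of the 49 windows (8.16%), against 7.26% of all windows. The 4 genes are shown with up to 7 bases on either side and the E-box in capitals, as ATG14 (chr14:55411839-55411858, minus strand), ATG3 (chr3:112561968-112561987, minus), NRBF2 (chr10:63133078-63133094, plus) and SNAP29 (chr22:20858816-20858835, plus), in GRCh38.p14 from RefSeq.
ATG14: aaaatccCACGTGactggct
ATG3: ctcacgtCACGTGccgggag
NRBF2: tcctCACGTGacttcag
SNAP29: ttcccgcCACGTGacctctc
The longer TCACGTGA, which contains the E-box, was in 2 windows (4.08%), of ATG3, at a second E-box past the start, and NRBF2, against 0.98% of all windows, and the FOXO site GTAAACA in 1 (2.04%), of CALCOCO2, against 3.42%. Log2 fold changes of the 4 E-box genes were 0.34 for ATG14, -0.080 for ATG3, 0.28 for NRBF2 and 0.30 for SNAP29. None of the 4 had groups that were apart as deposited. GABARAPL1, MAP1LC3B and SQSTM1 were not among the E-box genes in these windows.

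Of 55 further autophagy genes, listed by role but with earlier results of these data known, 51 were tested. A positive log2 fold change was found for 38 of these (74.51%), against 49.26% of all genes. Their median was 0.20, against -0.0060 over all genes, and 0 were called (0% of all genes), at a smallest limma adjusted p of 0.491. An unadjusted p under 0.05 was reached by 4 of the 51, all higher in shLAMP5, against 8.97% of all genes, and the groups were apart for 9 higher genes and 1 lower gene of the 51, against 8.25% and 13.5% of all genes. Without shLAMP5 2 the counts of 4, 9 and 1 were 8, 21 and 1, against 17.6%, 22.5% and 17.1% of all genes. Without shNT 1 they were 2, 16 and 3, against 3.87%, 18.4% and 25.6%. Without shNT 2 they were 2, 18 and 4, against 3.15%, 15.9% and 19.6%. The lower count was 3 without shLAMP5 3 or without shLAMP5 4, against 15.9% and 16% of all genes. RETREG1 and RILP passed the filter only through shLAMP5. NCOA4, CCPG1 and RAB7B were not analysed here, and PRKAA2 was too low to test. By list, 6 of 7 other membrane source genes, 9 of 10 receptor and mitophagy genes, 10 of 15 tethering genes and 13 of 19 upstream regulators were positive.

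TP53INP2, which binds ATG8 proteins and carries them out of the nucleus, measured 5.22, 4.11, 6.02 and 4.68 TPM in shLAMP5 1 to 4, against 2.35 and 2.09 TPM in shNT libraries (log2 fold change 0.89, limma adjusted p 0.491). TP53INP1, its p53-induced relative, measured 11.2, 6.45, 24.9 and 11.5 TPM in shLAMP5, against 4.66 and 5.68 TPM in shNT libraries (log2 fold change 1.09). Both had groups that were apart, with shLAMP5 3 the highest and shLAMP5 2 the lowest of the 4. BNIP3L, the mitophagy receptor also called NIX, measured 51.4, 51.9, 68.6 and 61.6 TPM in shLAMP5, against 37.2 and 28.2 TPM in shNT libraries (log2 fold change 0.82). WDFY3, a scaffold for aggregate clearance, measured 7.37, 7.01, 8.24 and 8.07 TPM in shLAMP5, against 4.38 and 4.50 TPM in shNT libraries (log2 fold change 0.67). In WDFY3 both groups were narrow, with all shLAMP5 libraries above 7 TPM. In the other direction, PHB2, an inner mitochondrial membrane receptor, measured 222, 175, 190 and 230 TPM in shLAMP5, against 257 and 283 TPM in shNT libraries (log2 fold change -0.41).

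TFEB, the transcription factor that drives lysosomal and autophagy genes, measured 18.4, 18.4, 34.0 and 17.1 TPM in shLAMP5 1 to 4, against 15.7 and 15.5 TPM in shNT libraries (log2 fold change 0.41). Its groups were apart, with shLAMP5 3 far above the rest, and its log2 fold change was 0.19 without that library. Groups were also apart, with all log2 fold changes positive, for FUNDC1 (0.21), a mitophagy receptor, VPS39 (0.22), a subunit of the tethering complex, PLEKHM2 (0.51), a lysosome transport adaptor, and ZFYVE1 (0.39), which marks the membrane where autophagosomes form. WDR45 (0.50), a relative of WIPI1, had the highest fold change among membrane source genes, and the lowest of each list were EI24 (-0.22), TECPR2 (-0.30), PHB2 and BCL2 (-0.38), the last an inhibitor of BECN1. TECPR2 turned to 0.057 without shNT 1 and was -0.66 without shNT 2, EI24 was -0.045 without shLAMP5 2, ZFYVE1 was 0.23 without shLAMP5 3 and WDR45 was 0.31 without shNT 2. No p-value of these passed the adjusted threshold.

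The libraries of a group also differed among themselves. The median difference of the 45 genes from the shNT mean, in log2(TPM + 1), was 0.22, -0.12, 0.27 and 0.23 in shLAMP5 1 to 4, and -0.043 and 0.043 in shNT 1 and 2. Over all genes tested it was 0.048, -0.21, 0.035 and 0.041 in shLAMP5 1 to 4, so shLAMP5 2 was low in both. By step, the ATG8 family median was 0.56, 0.33, 0.87 and 0.53 in shLAMP5 1 to 4, and 0.17 and -0.17 in shNT 1 and 2. This median counts MAP1LC3A, which passed the filter only through shLAMP5. In shLAMP5 2, GABARAPL2 was below both shNT libraries and GABARAP lay between them. Conjugation gave 0.11, -0.38, 0.052 and 0.086, and cargo receptors 0.25, -0.27, 0.62 and 0.25 in the same order.

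Of the 45 genes 24 (53.3%) had their lowest value in shLAMP5 2, where 44.4% of all genes did, and 22 (48.9%) their highest in shLAMP5 3, where 25.4% of all genes did. In shNT 2, 0 of the 45 had their highest value, against 19.8% of all genes. These counts were chosen after the values were seen, and no test was run on them. The part that harvest time, hairpin or library quality plays in them was not tested.

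**Figure D5:**
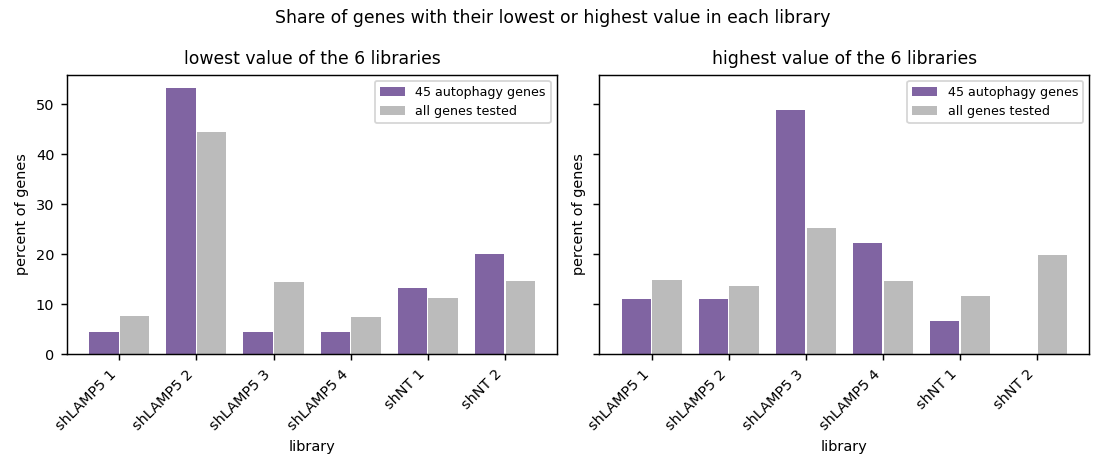
Percent of the 45 autophagy genes (purple) and of all genes tested (grey) with their lowest (left panel) or highest (right panel) value in each of the 4 shLAMP5 and 2 shNT libraries, with axes that start at 0. The tallest purple bars are 53.3% for the lowest value in shLAMP5 2 and 48.9% for the highest in shLAMP5 3, and shNT 2 holds the highest value of none.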

How the data were processed

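RNA of 4 shLAMP5 and 2 shNT libraries of MOLM-13 was prepared with a TruSeq kit and sequenced on a HiSeq instrument, per the labels' protocols, which speak of puromycin selection and of more than 1 harvest time. Groups and replicate numbers come from the library titles. The shLAMP5 mean and SD may mix hairpins or times. As no label speaks of separate cultures, p-values reflect only how far these libraries differ, and that spread may be technical. The values were deposited as 1 table of 39771 Ensembl identifiers by library, and the authors made them with kallisto on hg19, per the submitters' processing notes, giving values read here as TPM. They are fractional and sum to 897026 to 912565 per library, and the table names no unit. The transcript set and the step to genes were not given in the sources used here. Since TPM holds no depth, no counting interval was computed and no count test was run.

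Limma (version 3.58.1, R 4.3.3) with a mean-variance trend was fitted to log2(TPM + 1) of the 13072 genes that reached 1 TPM in 2 or more libraries, with Benjamini-Hochberg adjustment and a threshold of 0.05, after tests on simulated data. Fold changes on this scale understate the change of low genes. The 46 genes, the lists of further autophagy genes and the tests were chosen with earlier results of these data known. Per-library values are given for genes whose groups do not overlap, for the highest and lowest fold change of each step and for 12 set genes. Tables were made with pandas 2.3.3 and numpy 2.4.6 in Python 3.11.15, and figures with matplotlib 3.10.9. Shared 31-base stretches were counted on GENCODE release 29 transcripts, and promoter windows are RefSeq's in GRCh38.p14. Alternatives were another pseudocount, 2 other filters, median scaling, quantile normalization, library weights, the replicate number as a block, and each library left out.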

Additional observations from a re-analysis of the deposited data

Results flagged for a closer look

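Within the 4 shLAMP5 libraries, each of the 46 genes was checked for a single library far from the other 3, by the gap to the nearest library divided by the range. Of the 46 genes 4 passed the limit for 4 samples, which is set so that chance gives about 1 in 20. The share of all genes that pass it was not computed, so the count cannot show whether the autophagy genes differ from the rest. ATG2A, a lipid bridge protein, was lowest in shLAMP5 1 at 6.16 TPM, with 8.26 to 8.42 TPM in the other shLAMP5 libraries, against 5.70 and 7.01 TPM in shNT libraries (gap over range 0.929). ATG9A was lowest in shLAMP5 2 at 15.8 TPM (0.877), and GABARAPL2 was lowest in the same library at 43.1 TPM (0.940). MAP1LC3B was highest in shLAMP5 3 at 30.7 TPM (0.862), with 19.2 to 20.8 TPM in the other shLAMP5 libraries. The library shLAMP5 2 also had the lowest median scaling factor, 0.839, against 1.04 to 1.06 in the other shLAMP5 libraries and 0.998 and 1.04 in shNT libraries, and the lowest library weight, 0.193. Whether these values stem from the libraries or from the cells was not tested. BECN1 in shLAMP5 2, at 3.22 TPM, did not pass this limit.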

How the results depend on the processing

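Of 45 autophagy genes and LAMP5, 26 kept the sign of their log2 fold change under all 14 alternatives and 20 turned in at least 1. The limma count of autophagy genes called stayed at 0 in each, and the 2 under an unadjusted p of 0.05 became 10 with library weights (21.9% of all genes) and 1 with the replicate block (2.16%). Over all genes, 0 calls became 14 with no filter, 16 with the replicate number as a block, 210 with library weights (LAMP5 among them, at -1.40) and 1172 at an unadjusted p of 0.05. The groups were apart for 5 genes higher in shLAMP5, which became 8 under median scaling and 21 without shNT 1 and shLAMP5 2 together, and 6 to 17 when single libraries were left out. Over all genes the share of 8.25% became 12%, 33.6% and 9.01% to 22.5% in that order. The 2 lower genes became 1, 4 and 2 to 4 in the same order. Over all genes the lower share of 13.5% became 13.7%, 29.9% and 15.9% to 25.6%. The ATG8 median of 0.53 was 0.79 without both libraries, 0.39 with the replicate block and 0.32 without shNT 2. The PI3K complex median of 0.059 was -0.055 with the block. GABARAPL1, MAP1LC3A and STX17 stayed apart and higher, and ATG5 apart and lower, under median scaling and quantile normalization. The other alternatives could not make groups that were apart overlap, so they do not test this. MAP1LC3A passed the filter only through shLAMP5, so that its groups stayed apart is no support for a difference.

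Median scaling turned PIK3R4 (0.027), ATG12 (0.022), CALCOCO2 (0.031) and VAMP8 (0.027). Quantile normalization turned these to 0.0073, 0.026, 0.056 and 0.10, and ATG4D to -0.012. No scaling moved the median of all genes by over 0.1. Without shNT 1 and shLAMP5 2 together, BECN1 was 0.37, RUBCN 0.081, AMBRA1 0.089, ATG4A 0.049, ATG4D -0.57, ATG12 0.051 and RAB7A 0.10. Library weights gave BECN1 0.30, ATG3 0.12, ATG4D -0.23, CALCOCO2 0.18, VAMP8 0.35 and RAB7A 0.054. The replicate block gave PIK3C3 -0.018, PIK3R4 0.11, UVRAG -0.092, ATG4C -0.14, ATG10 -0.17, ATG12 0.13, GABARAPL2 -0.057 and TECPR1 -0.044. Deviations of same-numbered libraries from their group means correlated at -0.52 and -0.47. The deviations of the 2 shNT libraries mirror each other, so these values cannot decide whether the numbers pair libraries.

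With single libraries left out, the sign turned within these ranges of log2 fold change: BECN1 -0.58 to 0.33, PIK3R4 -0.081 to 0.076, UVRAG -0.084 to 0.38, RUBCN -0.27 to 0.17, AMBRA1 -0.12 to 0.033, ATG3 -0.22 to 0.087, ATG4C -0.077 to 0.24, ATG4D -0.36 to 0.39, ATG7 -0.0058 to 0.51, ATG10 -0.099 to 0.19, ATG12 -0.12 to 0.045, OPTN -0.053 to 0.70, CALCOCO2 -0.13 to 0.12, TAX1BP1 -0.096 to 0.38, VAMP8 -0.34 to 0.32 and RAB7A -0.19 to 0.081. A lone shNT library is assumed to vary like the shLAMP5 ones. Fewer libraries make groups easier to keep apart, and the cause of the other shifts was not tested. Depth is unknown, 2 shNT libraries limit every test, and RNA levels do not measure autophagic activity.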
